A study of Mus musculus with 2 samples.

Results

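The inward rectifier and background potassium channels were examined as 10 genes chosen by name: the pore subunits of the inwardly rectifying (Kir) channels *Kcnj2*, *Kcnj12*, *Kcnj3*, *Kcnj5*, *Kcnj8* and *Kcnj11*, the sulfonylurea receptors *Abcc8* and *Abcc9*, and the K2P channels (named for a pair of pore domains per subunit) *Kcnk1* and *Kcnk3*. The rule names genes of these families and uses no measured value, although the members were chosen with earlier results of these data known. They are 10 of the 20278 named genes that have a probe on the array, and 13 probes read them.

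A Kir channel passes potassium ions inward more easily than outward, and the small outward current that remains holds the resting potential of a cardiomyocyte and completes the last phase of repolarization. Kir2 subunits carry the inward rectifier current IK1 of ventricular muscle. Kir3 subunits, opened by G protein βγ subunits after muscarinic or adenosine receptors are activated, carry the acetylcholine-activated current that slows the atria and the pacemaker. Kir6 subunits join sulfonylurea receptors to form KATP channels, which open when cellular ATP falls, and K2P channels leak potassium at all voltages and so set a background conductance.

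The tissue was the left ventricle of male mice aged 12 weeks, collected at ZT 2, which is 2 h after lights on in a light-dark cycle. In the *H-Bmal1-/-* mice, a floxed *Bmal1* gene was deleted by a *Cre* transgene under the α-myosin heavy chain (*Myh6*) promoter, which is active in cardiomyocytes. Other cells of the ventricle should therefore keep the gene, which these arrays of whole tissue cannot show. The controls were littermates that carried the floxed gene and no *Cre*, although the sample labels name their genotype wild type, and a *Cre* control without floxed *Bmal1* was not compared. RNA of 6 animals per genotype was pooled and hybridized to 1 single-color array, so the data hold 1 *H-Bmal1-/-* pool and 1 control pool. No test across replicates could be made, every ratio below compares these pools, and no spread between animals is known. The paper warns that, with hearts taken only at ZT 2, a change may reflect a shift in the time of peak or trough. It also reports larger hearts, lower fractional shortening and higher *ANP* and *BNP* in *H-Bmal1-/-* mice of 12 weeks. The part of timing or of heart failure in the ratios below was not tested.

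The log2 ratio (*H-Bmal1-/-* minus control) was -0.80 for *Arntl*, the symbol of *Bmal1* in the gene table used, whose probe may lie outside the deleted exon, and -2.09 for the BMAL1 target *Nr1d1*. Of 59305 noncontrol spots per array, 29672 on the *H-Bmal1-/-* array and 29288 on the control array were well above background by the scanner software, and 0 were saturated. A gene counted as measured when a probe of it was well above background on at least 1 array, which held for 13858 named genes. A log2 ratio is the log2 of the quotient of processed signals after each was divided by the 75th percentile of its array, 190 on the *H-Bmal1-/-* array and 171 on the control array. The error given with a ratio comes from the error that the scanner software attached to each signal, and it covers neither the animals nor the labeling. For the bright member probes it was near 0.20 throughout, above the spot noise given next. It serves as a scale and not as a test. As an independent gauge of spot noise, the log2 ratio of probes printed at least 8 times had a median SD between spots of 0.23 for 33 probes with a signal below 64 and of 0.053 for 116 probes with a signal of 512 or more.

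Of the 10 members, 9 were well above background on both arrays, and their signals were mostly lower in the *H-Bmal1-/-* pool. Among these 9, 8 had a log2 ratio below 0 and 1 above 0 (7 and 2 when the arrays were not scaled), while 51.6% of all measured genes were below 0. The median log2 ratio of the members was -0.43, and that of all measured genes was -0.01. By a fold of 1.5, 4 members were lower in the *H-Bmal1-/-* pool (*Kcnj2*, *Kcnj3*, *Kcnj5* and *Abcc9*), whereas 6.31% of all measured genes were at least 1.5-fold lower. With a normexp background correction, which draws ratios of dim probes toward 0, 1 member (*Abcc9*) stayed past this fold, beside 1.79% of all genes. Without scaling, with median centring or with spike-in scaling, 3 did, beside 4.45%, 6.13% and 5.92% of all genes in turn. At the same fold, 0 members were higher, and 7.33% of all genes were. The share of genes past this fold depends on brightness, since 13% of the dimmest tertile, which holds *Kcnj2* and *Kcnj3*, were at least 1.5-fold lower, against 3.31% of the middle tertile and 2.62% of the brightest tertile, which holds *Kcnj5* and *Abcc9*. At 2-fold, *Kcnj2* and *Abcc9* were lower, as were 2.86% of all measured genes, and 0 members were higher, against 3.48% of all. In bulk RNA, fewer cells of a type and less RNA per cell cannot be told apart.

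**Figure D1:**
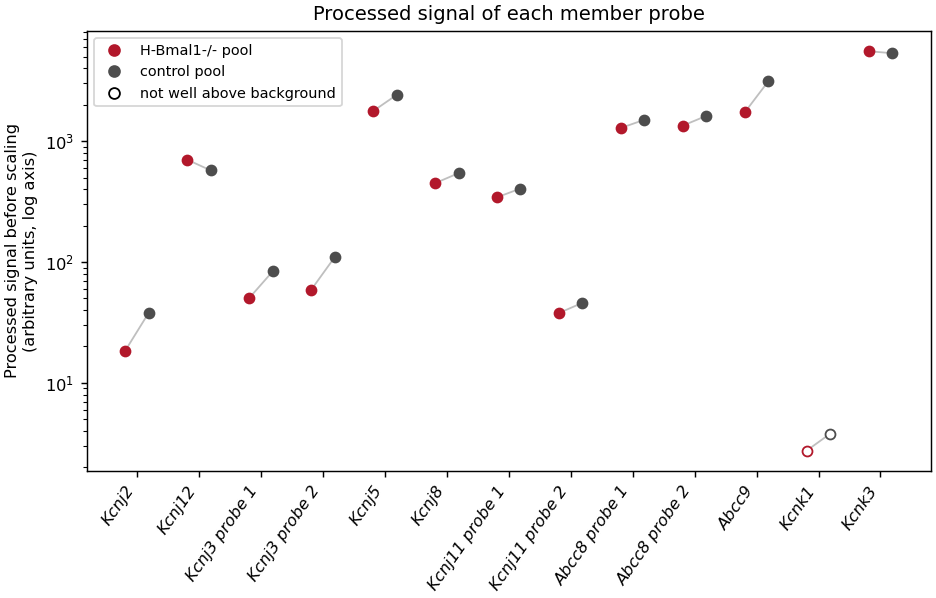
Processed signal (arbitrary units before scaling, log axis) of the 13 member probes, with the *H-Bmal1-/-* pool in red on the left of each pair and the control pool in gray on the right, 1 array each. The control point is higher for 11 of the 13 probes, the open points of *Kcnk1* were not well above background, and heights of different probes cannot be compared.

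The strong inward rectifiers differed in sign. *Kcnj2*, which encodes Kir2.1, a pore subunit of IK1, had a processed signal of 18.4 ± 3.33 in the *H-Bmal1-/-* pool and 38.0 ± 4.71 in the control pool (± the error of the scanner software, 1 array each). Its log2 ratio was -1.20 ± 0.32, which is 2.29-fold lower in the *H-Bmal1-/-* pool, and 298 of the 13858 measured genes (2.15%) had a lower ratio. The probe is dim, and when the background was instead corrected with normexp and an offset of 50, the ratio was -0.35. *Kcnj12*, which encodes Kir2.2, the other main Kir2 subunit of the ventricle, had signals of 702 ± 70.3 in the *H-Bmal1-/-* pool and 572 ± 57.3 in the control pool, with a log2 ratio of 0.14 ± 0.20. This difference was smaller than its error. The log2 ratio of *Kcnj2* was 1.34 ± 0.38 below that of *Kcnj12*. With normexp, the ratios of *Kcnj2* and *Kcnj12* were -0.35 and 0.17.

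The promoters of this pair are shown because their log2 ratios differed in sign as given above, and because BMAL1 acts through an E-box (CACGTG). The ratio of *Kcnj12* was smaller than its error, however, and with normexp 4 other members had lower ratios than *Kcnj2*. Each stretch is the 250 bases before the transcription start in RefSeq on GRCm38.p6, read 5′ to 3′ on the plus strand in lower case, with the E-box in capitals. The *Kcnj2* stretch is chr11:111065914-111066163, and the *Kcnj12* stretch is chr11:61065554-61065803.
Kcnj2: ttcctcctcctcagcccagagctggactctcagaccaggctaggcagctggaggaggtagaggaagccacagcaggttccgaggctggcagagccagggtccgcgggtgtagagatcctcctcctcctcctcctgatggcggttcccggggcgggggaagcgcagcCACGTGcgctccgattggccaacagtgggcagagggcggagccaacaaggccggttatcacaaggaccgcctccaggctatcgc
Kcnj12: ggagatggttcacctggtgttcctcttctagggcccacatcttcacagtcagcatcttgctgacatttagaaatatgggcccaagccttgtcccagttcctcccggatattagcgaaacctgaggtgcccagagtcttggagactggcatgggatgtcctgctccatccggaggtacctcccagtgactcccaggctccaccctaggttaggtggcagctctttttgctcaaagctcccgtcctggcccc
The E-box of *Kcnj2* begins 84 bases before the start. RefSeq promoters could be matched for 7 members (*Kcnj2*, *Kcnj12*, *Kcnj3*, *Kcnj5*, *Kcnj8*, *Abcc9* and *Kcnk1*), and CACGTG, searched on both strands, was found in 1 of these 7 and in 6.02% of 32851 promoters of the same length. The noncanonical E-box CACGTT (3.85% of all promoters), the D-box TTATGTAA (0.819%), which PAR bZIP factors bind, and the core AGGTCA (14.0%) of the element that REV-ERB and ROR receptors bind, were found in 0 of the 7. *Kcnj11*, *Abcc8* and *Kcnk3* were not matched. The stretches of *Kcnj3*, *Kcnj5* and *Abcc9*, which were also at least 1.5-fold lower, are not shown and held no E-box. A match says only that these letters lie in this window.

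The G protein-gated subunits were both lower in the *H-Bmal1-/-* pool. *Kcnj3*, which encodes Kir3.1 (GIRK1), was read by 2 probes, with signals of 50.2 and 58.7 in the *H-Bmal1-/-* pool and of 83.6 and 109 in the control pool. Their log2 ratios were -0.89 ± 0.22 and -1.05 ± 0.22, so that the probes differed by 0.16, close to the median difference of 0.14 over 2984 genes with 2 measured probes. The mean, -0.97 ± 0.15, is 1.96-fold lower. With the normexp correction it was -0.57. *Kcnj5*, which encodes Kir3.4 (GIRK4), the partner of Kir3.1 in the cardiac channel, had signals of 1769 in the *H-Bmal1-/-* pool and 2411 in the control pool, and a log2 ratio of -0.60 ± 0.20. At 1.51-fold lower it lies at the edge of the fold used, and it fell short of that fold with normexp (-0.51), without scaling (-0.45) and with median centring or scaling to spike-in probes. The ratios of *Kcnj3* and *Kcnj5* differed by 0.37 ± 0.26.

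Both subunits are most abundant in atria and pacemaker tissue, so markers of these were read in the same pools. Of 7 atrial markers, 5 were measured, 3 above 0 and 2 below (4 and 1 without scaling). Their median log2 ratio was 0.15 (-0.097 over all 7 with no filter on dim probes). Their summed level was 5.49 in the *H-Bmal1-/-* pool and 5.19 in the control pool (in units of the 75th percentile of each array). The 2 below 0 were *Nr2f1* (-0.24) and *Nr2f2* (-0.12). *Bmp10* was among those not well above background on either array, and *Myl7*, the atrial light chain, had a log2 ratio of 0.63, or 0.33 with normexp. *Sln*, the atrial regulator sarcolipin, was well above background only in the *H-Bmal1-/-* pool, with signals of 33.7 in the *H-Bmal1-/-* pool and 2.94 in the control pool, and its measured log2 ratio of 3.37 was 0.54 with normexp. Of 7 conduction system markers, 2 were measured, *Tbx3* at -0.45 and *Cacna1g* at -0.15, the last of them above 0 without scaling, with a summed level of 3.23 in the *H-Bmal1-/-* pool and 4.28 in the control pool, and *Hcn4*, *Shox2*, *Isl1* and *Cntn2* were among those not well above background on either array. The part of these cells in the *Kcnj3* and *Kcnj5* ratios was not tested.

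**Figure D2:**
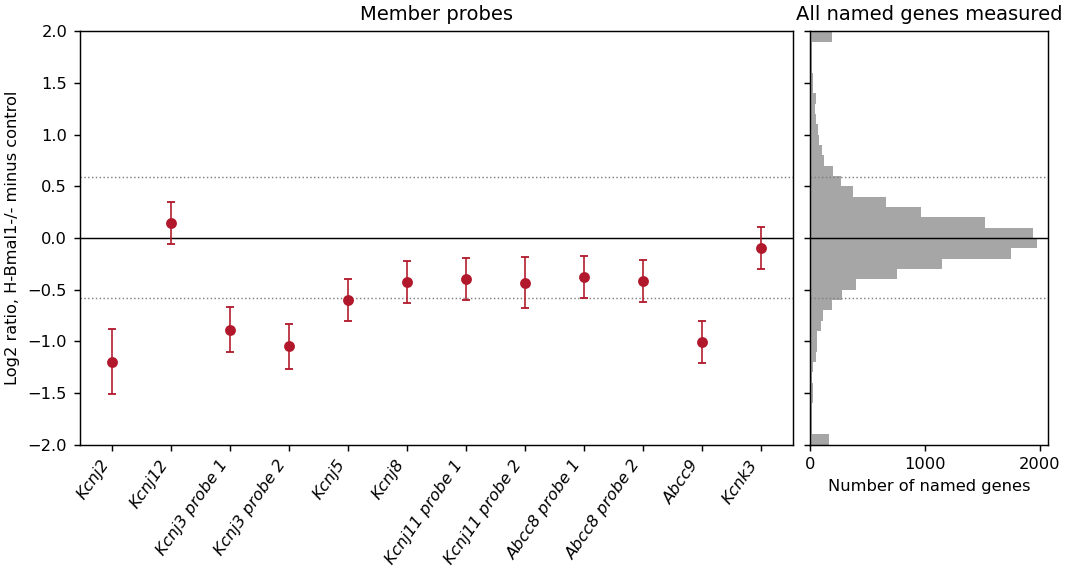
Left, log2 ratio (*H-Bmal1-/-* minus control) of the 12 member probes well above background, with bars for the error from the scanner software, and right, the number of named genes at each ratio, with those past 2 or -2 gathered in the outermost bars. Dotted lines mark 1.5-fold, and 11 of the 12 member probes lie below 0.

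The KATP genes were all lower in the *H-Bmal1-/-* pool, and *Abcc9* the most. Among the pore subunits, *Kcnj8*, which encodes Kir6.1, the form of vascular smooth muscle and pericytes, had signals of 448 ± 44.9 in the *H-Bmal1-/-* pool and 543 ± 54.4 in the control pool, and a log2 ratio of -0.43 ± 0.20. *Kcnj11*, which encodes Kir6.2, the pore of the sarcolemmal KATP channel of ventricular cardiomyocytes, had signals of 343 and 37.8 at its 2 probes in the *H-Bmal1-/-* pool and of 405 and 45.9 in the control pool. The log2 ratios of these probes were -0.39 and -0.43, with a mean of -0.41 ± 0.16. *Kcnj8* and *Kcnj11* were thus 1.35-fold and 1.33-fold lower, short of the fold used.

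*Abcc8*, which encodes SUR1, the receptor of pancreatic β cells and of mouse atria, had signals of 1285 and 1343 at its 2 probes in the *H-Bmal1-/-* pool and of 1502 and 1618 in the control pool, and a mean log2 ratio of -0.40 ± 0.14. *Abcc9*, which encodes SUR2, the receptor of ventricular muscle as SUR2A and of smooth muscle as SUR2B, had signals of 1730 ± 173 in the *H-Bmal1-/-* pool and 3127 ± 313 in the control pool. Its log2 ratio of -1.01 ± 0.20, 2.01-fold lower, was the lowest of the 5 members in the brightest tertile, and it was the sole member that stayed past 1.5-fold with normexp (-0.87). The sources used here do not tell which of the SUR2 forms its probe reads.

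The KATP genes lie in neighboring pairs in the mouse genome, *Kcnj11* next to *Abcc8* and *Kcnj8* next to *Abcc9*. The ratios of *Abcc8* and *Kcnj11* differed by 0.02 ± 0.22. The ratio of *Abcc9* was 0.58 ± 0.29 below that of *Kcnj8*. Thus the members of one pair had nearly equal ratios, and those of the other lay further apart than this error, which is no test of a difference.

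Because *Kcnj8* and *Abcc9* are also genes of mural cells, pericyte and smooth muscle markers were read beside them. All 9 were measured, 7 were below 0 and 2 above, and their median log2 ratio was -0.17 with a range of -0.27 to 0.09. Their summed level was 102 in the *H-Bmal1-/-* pool and 109 in the control pool. The ratio of *Abcc9* lies below this range by more than its error and that of *Kcnj8* by less, and the part of mural cells in them was not tested.

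Of the K2P channels, *Kcnk3* was measured and *Kcnk1* was not. *Kcnk3*, which encodes TASK-1, an acid-sensitive background channel, had signals of 5544 in the *H-Bmal1-/-* pool and 5338 in the control pool, and a log2 ratio of -0.10 ± 0.20, which was 0.054 when the arrays were not scaled. *Kcnk1*, which encodes TWIK-1, had signals of 2.75 ± 2.76 in the *H-Bmal1-/-* pool and 3.80 ± 2.78 in the control pool and was not well above background on either array, so no fold is given. A difference in *Kcnk1* was not detectable at this signal.

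**Figure D3:**
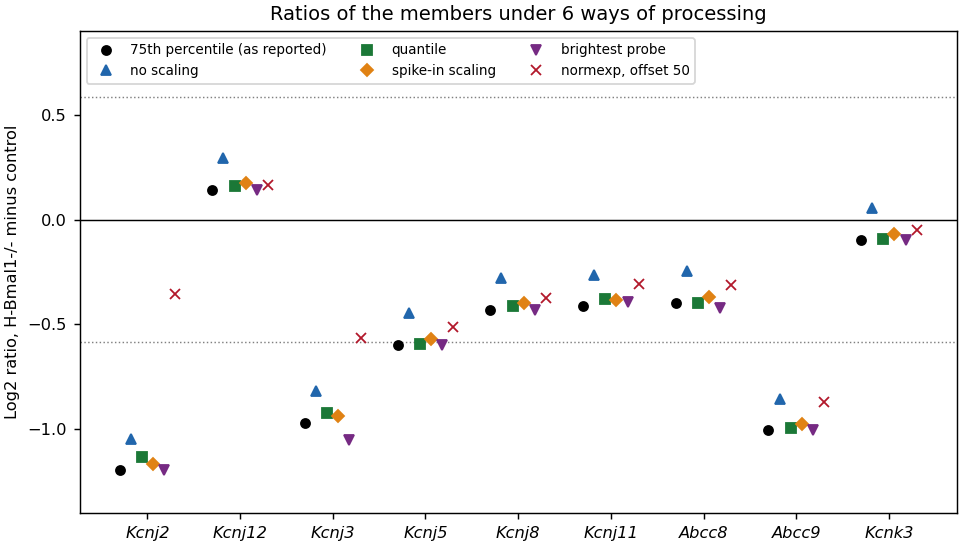
Log2 ratio (*H-Bmal1-/-* minus control) of the 9 measured members under 6 ways of processing the same 2 arrays, with dotted lines at 1.5-fold. *Kcnj2* and *Kcnj3* move the most, to -0.35 and -0.57 with normexp, and *Abcc9* stays below the lower line under all 6.

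Other genes of both channel families were read from lists that are not limited to the heart. Of 9 other Kir genes, 4 were measured, with a median log2 ratio of -0.35, which was 0.28 over the 3 that were well above background on both arrays. By the fold of 1.5, 1 was higher and 2 were lower, beside 7.33% higher and 6.31% lower among all measured genes. The 2 lower ones, *Kcnj4* and *Kcnj10*, were dim and fell short of this fold with normexp. Of the dimmest tertile of all genes, 13% were lower by this fold. *Kcnj14*, which encodes Kir2.4, was the one that was higher, with a mean signal over its 2 probes of 1594 in the *H-Bmal1-/-* pool and 456 in the control pool. The probes had log2 ratios of 1.61 and 1.66, and the mean log2 ratio of 1.64 ± 0.15 is 3.11-fold higher, or 1.45 with normexp. *Kcnj14* thus had a ratio 2.83 ± 0.35 above that of *Kcnj2* and 1.49 ± 0.25 above that of *Kcnj12*, all 3 of them Kir2 genes. The first of these differences rests on the dim *Kcnj2* probe, whose ratio was -0.35 with normexp. *Kcnj4*, which encodes Kir2.3, had signals of 19.0 in the *H-Bmal1-/-* pool and 33.8 in the control pool, and a log2 ratio of -0.98 ± 0.31, which was -0.27 with normexp. The Kir2 genes therefore did not share a direction.

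*Kcnj10*, which encodes the glial and epithelial subunit Kir4.1, was well above background in the control pool only, with signals of 9.31 in the *H-Bmal1-/-* pool and 18.0 in the control pool, and its log2 ratio of -1.10 ± 0.46 was -0.28 with normexp. *Kcnj15*, which encodes Kir4.2, had a log2 ratio of 0.28 ± 0.27, which was 0.050 with normexp and -0.40 with no filter on dim probes, so that its direction is not settled. *Kcnj1*, *Kcnj6*, *Kcnj9*, *Kcnj13* and *Kcnj16* were not well above background on either array. *Kcnj6* and *Kcnj9* encode Kir3.2 and Kir3.3, so the Kir3 genes detected here were *Kcnj3* and *Kcnj5*.

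Of 12 other K2P genes, 5 were measured, with a median log2 ratio of 0.04, or -0.053 with normexp. *Kcnk9*, which encodes TASK-3, the nearest relative of TASK-1, had signals of 28.1 in the *H-Bmal1-/-* pool and 42.8 in the control pool, and a log2 ratio of -0.76 ± 0.27, or -0.26 with normexp. *Kcnk16* was well above background in the *H-Bmal1-/-* pool only, with signals of 15.4 in the *H-Bmal1-/-* pool and 7.21 in the control pool, and its ratio of 0.94 ± 0.67 was -0.05 with normexp. *Kcnk4*, *Kcnk6* and *Kcnk13* lay between -0.20 and 0.14, and *Kcnk4*, the lowest of them, was at 0.29 with no filter on dim probes. The other 7 were not well above background on either array, among them *Kcnk2*, which encodes the stretch-sensitive channel TREK-1, with signals of 9.45 in the *H-Bmal1-/-* pool and 3.08 in the control pool.

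The genes that act on the G protein-gated channel were spread on both sides of 0. All 12 on the list were measured, 6 above 0 and 6 below (9 and 3 without scaling), with a median log2 ratio of 0.04. *Chrm2*, the M2 muscarinic receptor that opens the channel through Gi, had signals of 299 in the *H-Bmal1-/-* pool and 315 in the control pool, and a log2 ratio of -0.23 ± 0.20. *Adora1*, the A1 adenosine receptor that opens the same channel, was higher, with signals of 252 in the *H-Bmal1-/-* pool and 123 in the control pool, and a log2 ratio of 0.88 ± 0.21. *Gnao1*, the Gαo subunit, was also higher (1.04 ± 0.20), with signals of 539 in the *H-Bmal1-/-* pool and 236 in the control pool. *Rgs6*, which speeds the closing of the channel after the receptor signal ends, was lower, with a mean signal of 66.1 in the *H-Bmal1-/-* pool and 129 in the control pool. Its 2 probes had log2 ratios of -1.24 and -0.96, and the mean of -1.10 ± 0.15 was -0.62 with normexp. *Rgs4*, another regulator of this signal, had a log2 ratio of -0.40 ± 0.15, and the other 7 genes lay between -0.10 and 0.23.

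Genes that anchor or carry these channels, or that make PIP2, the membrane lipid Kir channels need to open, were mostly near 0. Of 12 listed, 11 were measured, 9 above 0 and 2 below, with a median log2 ratio of 0.09. *Dlg1*, the scaffold SAP97 that binds Kir2 channels, had a log2 ratio of -0.21 ± 0.15, and *Ank2*, ankyrin-B, which anchors Kir6.2, had one of -0.12 ± 0.20. *S100a10*, p11, a partner of TASK-1, was at 0.25 ± 0.20. *Pip5k1c*, a PIP2-making kinase, had a mean of 0.80, or 0.11 with normexp, but its probes disagreed, at -0.65 and 2.26, and the second was well above background in the *H-Bmal1-/-* pool only.

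**Figure D4:**
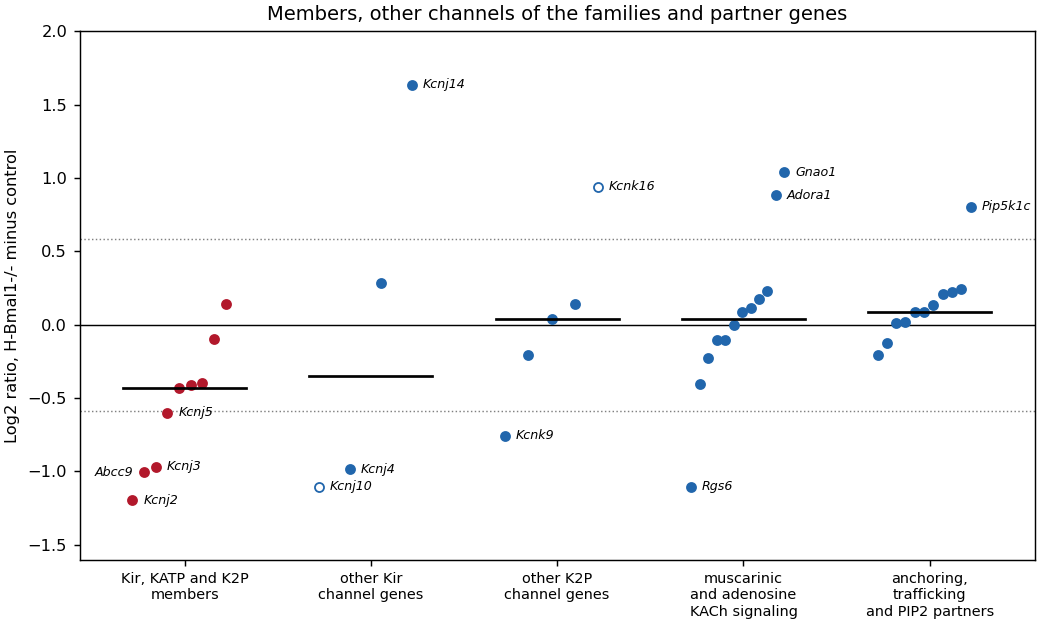
Log2 ratio (*H-Bmal1-/-* minus control) of each measured gene, grouped by list, with black lines at the medians, dotted lines at 1.5-fold and open points for genes well above background on 1 array only. The members have a median of -0.43, *Kcnj14* stands highest at 1.64, and the lists of signaling and partner genes are centered at 0.04 and 0.09.

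Markers of the other cells of a ventricle, and of the cardiomyocytes in which *Bmal1* was deleted, were read beside the members. All 10 cardiomyocyte markers were measured, and all were below 0, from -0.42 to -0.08, with a median log2 ratio of -0.23 and a summed level of 7803 in the *H-Bmal1-/-* pool and 8998 in the control pool. Without scaling, 4 of these 10 were above 0. With quantile normalization, 6 of them were below 0 and the others at 0, with a median of -0.11. *Kcnj2*, *Kcnj3* and *Abcc9* had ratios below the range of these markers given first, although *Kcnj2* was at -0.35 with normexp. The ratios of *Kcnj5* (-0.60 ± 0.20) and *Kcnj8* (-0.43 ± 0.20) cannot be told from the lowest marker within their errors. Those of *Kcnj11* (-0.41), *Abcc8* (-0.40) and *Kcnk3* (-0.10) lay within the marker range, and that of *Kcnj12* (0.14) lay above it. Fibroblast markers were higher, with all 7 above 0, a median of 0.64 and a summed level of 437 in the *H-Bmal1-/-* pool and 295 in the control pool. Of 8 endothelial markers, 6 were below 0 (2 without scaling), with a median of -0.07. Of 6 macrophage markers, 5 were measured, with a median of 0.06, and no probe was matched to the other, *Cd68*. Of 6 neuronal markers, 3 were measured, with a median of -0.27. How far these markers and the member ratios depend on each other was not tested.

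**Figure D5:**
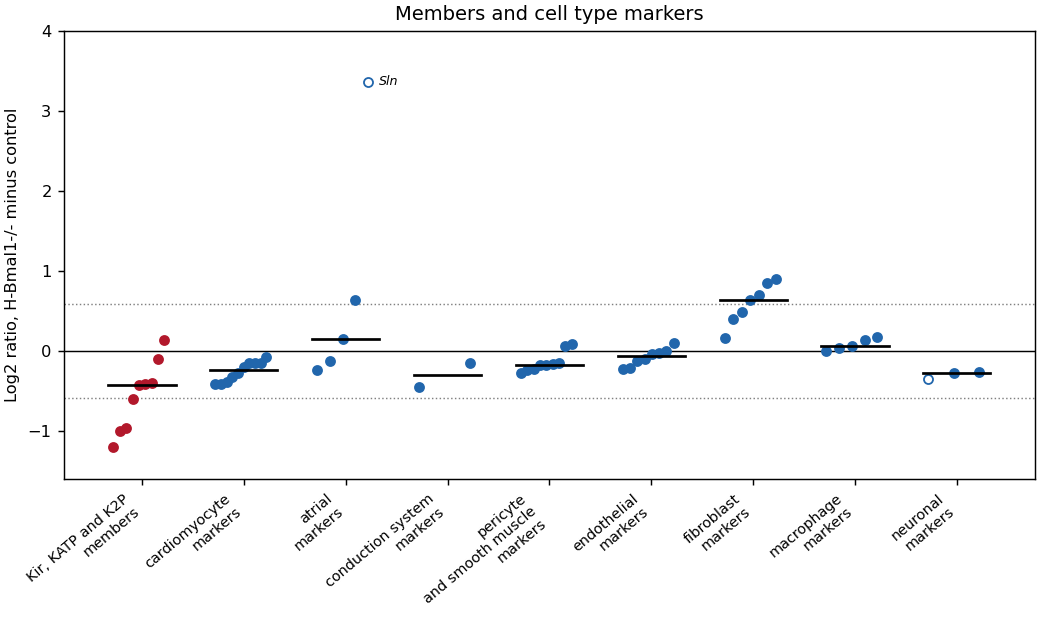
Log2 ratio (*H-Bmal1-/-* minus control) of the members in red and of markers of the cell types of a ventricle in blue, with black lines at the medians, dotted lines at 1.5-fold and open points for genes well above background on 1 array only. Fibroblast markers have a median of 0.64 and cardiomyocyte markers one of -0.23, against -0.43 for the members.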

How the data were processed

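RNA of the left ventricle, pooled from 6 animals per genotype, was labeled with Cy3 and hybridized by the authors to Agilent SurePrint G3 Mouse arrays, 1 per pool. The deposited intensities are the processed signal of Agilent Feature Extraction (background-subtracted, linear, not scaled between arrays) with its error, and median spot and local background signals. The version is 10.5.1.1 in the submitters' processing notes and 10.10.1.1 in the scanner output. In the authors' value table, intensities are linear and equal the processed signal multiplied by a constant of log2 2.31 (*H-Bmal1-/-*, median 64) or 2.45 (control, median 67.2). The sources do not give the rule behind it.

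From these, log2 of the processed signal minus the 75th percentile over noncontrol spots was computed, and 269 spots with an outlier flag were left out. Spots of a probe, then measured probes of a gene, were averaged. Of 55676 probes, 26753 were named by accession through RefSeq genes of GRCm38.p6. Ratio errors combine the processed signal errors of both arrays, and those of the probes of a gene as if these were independent. With 1 array per genotype, members were described by values and by counts at 1.5-fold beside all measured genes, and the number of arrays limits the precision. Members and lists were chosen with earlier results of these data known. Named were all members, list genes past 1.5-fold with up to 2 at either end, and markers by range, and further list genes (*Chrm2*, *Kcnk2*, *Kcnk4*, *Kcnk6*, *Kcnk13*, *Kcnj15*, *Rgs4*, *Myl7*, *Sln*, *Tbx3* and *Cacna1g* among them) were named for their role after their values were seen. Some list genes are not reported here by name. Alternatives were other scalings, background correction, filters on dim probes, outlier flags, probe choice, the value table and a fold of 2. Steps were tested on a simulated pair of arrays with noise of the same size at every signal, which does not test the ratios of dim probes. Software was limma 3.58.1 in R 4.3.3 for normexp and quantile normalization, and otherwise Python 3.11.15 (numpy 2.4.6, pandas 2.3.3), with figures drawn in matplotlib 3.10.9.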

Additional observations from a re-analysis of the deposited data

How the results depend on the processing

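Over 10 alternatives, 89 of 90 member ratios kept their direction. The exception was *Kcnk3*, at 0.054 with no scaling. Several alternatives could hardly alter these ratios, so this count overstates how far they were tried. The value table is the processed signal times a constant. The filters on dim probes and the outlier flags changed the probes of no measured member. The choice of the brightest probe bears only on members with 2 probes. The median of the members was -0.43 as reported, -0.28 with no scaling, -0.35 with normexp and -0.51 with no filter on dim probes, which adds *Kcnk1*. No scaling added the same 0.15 to the ratio of every gene. The median of the members therefore stayed 0.42 below that of all genes by arithmetic. Of the 4 members at least 1.5-fold lower, 1 (*Abcc9*) was left with normexp and 2 (*Kcnj2* and *Abcc9*) at 2-fold, and 3 with no scaling, centring or E1A scaling, which lose *Kcnj5*. The shares of all measured genes that were lower were 1.79% with normexp and 2.86% at 2-fold. They were 4.45%, 6.13% and 5.92% with no scaling, centring and E1A scaling. Over all genes, 1016 were higher and 875 lower as reported (53.7% of calls higher), 1490 and 617 with no scaling (70.7%), 373 and 248 with normexp, 622 and 558 where both arrays had to be well above background, and 1622 and 1663 with no filter. Normexp was planned on the mean or median signal and run on the median.

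No paired analysis was possible because each genotype has 1 array, and leaving out a replicate leaves no comparison. Ratios of dim genes depend on the background correction, among them *Kcnj2*, *Kcnj4*, *Kcnj10*, *Kcnj15*, *Kcnk9*, *Kcnk16*, *Sln*, *Myl7* and *Pip5k1c*.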

Other observations

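Genes of the lists whose probes disagree were noted after their values had been seen. The second probe of *Gnao1* was not well above background on either array, with signals of 9.99 in the *H-Bmal1-/-* pool and 9.83 in the control pool, so that its ratio of 1.04 rests on 1 probe. *Kcnj15* and *Kcnk4* were each read by 1 probe well above background and 1 that was not. For *Kcnj14*, *Rgs4* and *Rgs6*, both probes were measured and lay on the same side of 0, with differences of 0.05, 0.02 and 0.28 on the log2 scale.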
